A study of Mus musculus with 2 samples.

Results

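The genes described here are the Wnt ligands, their receptors and their secreted modulators, measured in fetal mouse palate at E18.5 (embryonic day) on the BALB/c background. The rule used annotated gene symbols and no values, but it was chosen with earlier results of these data known. It took every probe set of a single gene named Wnt, Fzd, Sfrp, Dkk or Rspo with a number. It also took those of Lrp5, Lrp6, Ror1, Ror2, Ryk, Axin2, Lef1, Wif1, Porcn and Wls. That gave 51 genes of the 18193 on the array, read by 100 probe sets. Palate labelled Myf5-/-:MyoD-/- on BALB/c was hybridised to 1 array, and wild-type BALB/c palate to 1 array. Myf5 and MyoD are transcription factors that commit cells to skeletal muscle, and the series was made to ask what that muscle contributes to palate development. Whether RNA came from 1 fetus or a pool is not stated in the labels. With 1 array per genotype there are no replicates, so every value below compares these arrays, no p-value is given, and a difference between animals or dissections cannot be told apart from one between genotypes.

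Wnt proteins are secreted, lipid-modified signals. Porcupine (Porcn) adds the lipid and Wntless (Wls) carries the ligand to the cell surface, where it binds a Frizzled receptor together with Lrp5 or Lrp6, which stabilises beta-catenin and lets it act with Lef1 and related TCF factors on target genes. Other receptors, among them Ror1, Ror2 and Ryk, carry responses that do not pass through beta-catenin. Sfrp proteins and Wif1 bind the ligands outside the cell, Dkk proteins bind the Lrp co-receptors, and R-spondins (Rspo) raise signalling by keeping Frizzled receptors on the surface. In the mouse, loss of Wnt5a, Ror2, Wnt9b or Lrp6, or of Fzd1 and Fzd2 together, is known to disturb the formation of the palate or lip.

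Signals are the deposited MAS5 intensities after each array was brought to a common median, in arbitrary units. Each gene is given by its probe set of highest mean log2 signal, and it counted as measured if either array reached 658, the 60th percentile of all values. Signals under 287, the 40th percentile, were set to that floor before a ratio was taken. Every ratio has the array labelled double null on top and the wild-type array below. As a yardstick, measured probe sets that share a gene varied in log2 ratio with a pooled SD of 0.51 over 4029 genes. The targeted genes themselves did not separate the arrays. Myod1 had signals of 1664 on the array labelled double null and 1937 in wild type, and the single Myf5 probe set, below the level for a measured gene, had 532 and 517 in the same order. Whether they read the removed sequence is not known here, so they check nothing about the label.

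Most of the Wnt genes lay within 2-fold between the arrays, and the 4 past it by their representing probe sets were lower on the array labelled double null. Of the 51 genes 36 counted as measured. Among them 4 were at least 2-fold lower (Fzd7, Fzd8, Fzd10 and Rspo1), against 4.22% of all 11239 measured genes, and 0 were at least 2-fold higher, against 3.55% of all measured genes. The other 32 lay within 2-fold. Over all 36 measured members the median log2 ratio was 0.05, beside 0.07 over all measured genes. Of the 36 members 16 were below 0 and 20 above 0, where 43.5% of all measured genes were below 0 and 56.5% above. At 1.5-fold, 7 were lower and 2 higher (background 11.7% and 13.3%), and at 3-fold 0 passed either way (background 1.17% and 0.498%). The filter bears on these counts: Fzd10 and Rspo1 reached the measured level only on the wild-type array, so they could count as measured only by being lower on the other. Of the 32 genes that reached it on both arrays, 2 were at least 2-fold lower, namely Fzd7 and Fzd8, and 0 were higher, against 2.16% and 2.35% of all genes so measured. Counted by probe set, 52 of the 100 were measured, with 5 lower by 2-fold or more and 1 higher (background 4.5% and 3.72%).

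**Figure D1:**
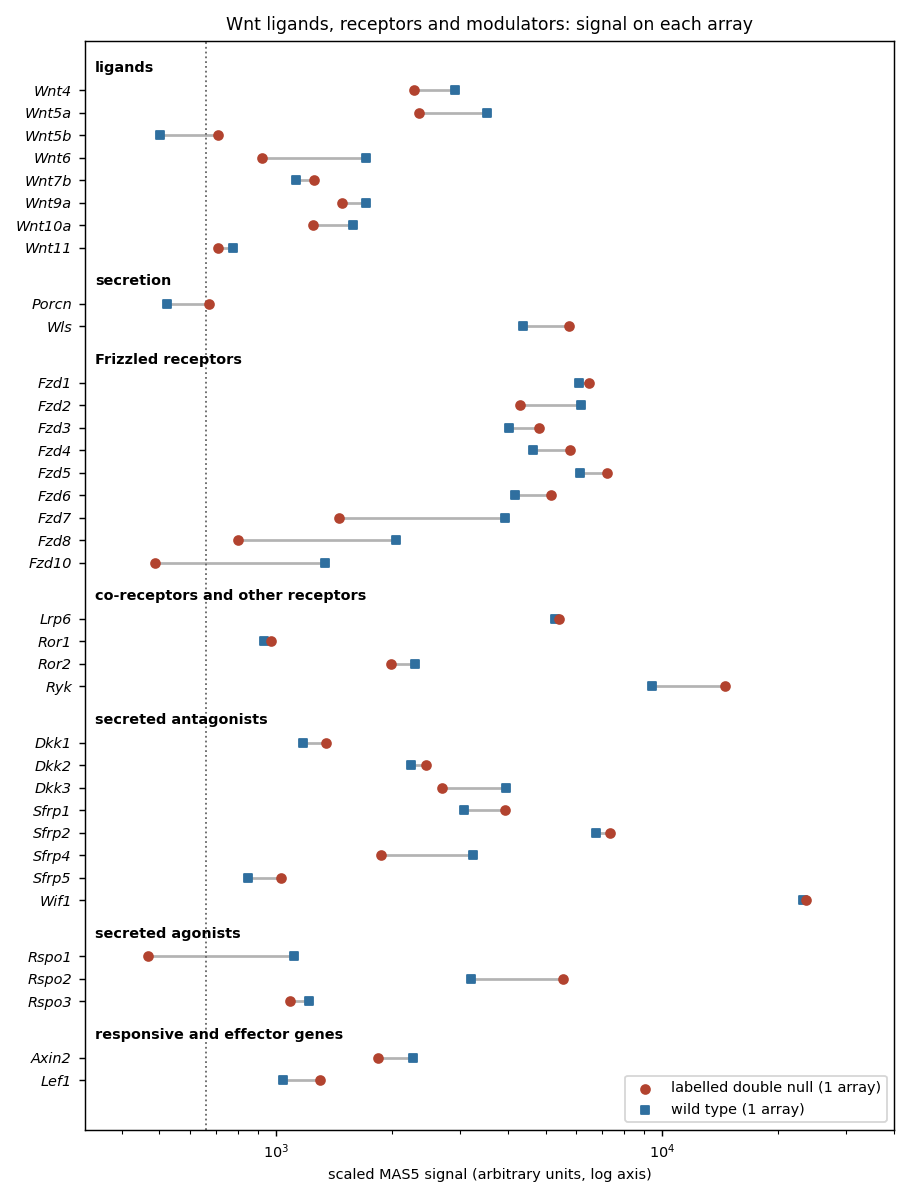
Scaled MAS5 signal (arbitrary units, log axis) of the 36 measured members, grouped by role, with the array labelled double null as red circles and the wild-type array as blue squares. The dotted line is the level of 658 for a measured gene. Fzd7, Fzd8, Fzd10 and Rspo1 have the widest gaps, all with the wild-type array higher, while Wif1, Lrp6 and Ror1 nearly coincide.

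The Frizzled family, the cell-surface receptors that bind the ligands, held 3 of the 4 genes past 2-fold, that is 3 of its 9 measured genes, beside the 4.22% of all measured genes. Of these 3, Fzd10 reached the measured level only in wild type, Fzd8 has a second measured probe set above 0, and Fzd7 has neither limit. Fzd7, a receptor best known in skeletal muscle for its part in satellite cell division, had a signal of 1459 on the array labelled double null and 3919 in wild type, which is 2.69-fold lower. Fzd10 had 488 and 1339 in the same order (2.74-fold lower). Both log2 ratios, -1.43 and -1.46, were larger than the spread of 0.51 between probe sets of one gene, and each rests on 1 measured probe set. The second probe set of each gene was under the floor on both arrays, with 64.5 on the array labelled double null and 49.96 in wild type for Fzd7, and 137 and 24.3 for Fzd10.

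Fzd8 gave a split reading. The probe set that represents it had 801 on the array labelled double null and 2054 in wild type, 2.56-fold lower, whereas its other measured probe set had 766 and 580, a log2 ratio of 0.40. That other probe set reached the measured level only on the array labelled double null, so it could count only by being higher there. Its ratio was also smaller than the SD of 0.51. The mean of the 2 probe sets was a log2 ratio of -0.48, so that Fzd8 no longer passed 2-fold. For Fzd8 the direction therefore depends on which probe set is read.

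The remaining measured Frizzled genes lay within 2-fold and did not share a direction. Fzd2, the partner of Fzd1 in palate closure, had a signal of 4280 on the array labelled double null and 6170 in wild type, a log2 ratio of -0.53, and its other measured probe sets gave -0.45 and -0.24. Fzd1 had 6491 and 6118 in the same order, a log2 ratio of 0.09 that turned below 0 in 3 alternative settings. Fzd3, known for axon guidance and planar polarity, had 4804 on the array labelled double null and 4018 in wild type, with log2 ratios of 0.26, 0.45 and 0.47 over its 3 measured probe sets. Fzd4, a receptor for the vascular ligand norrin, had 5797 and 4637 in that order, Fzd5 had 7200 and 6153, and Fzd6, a planar polarity receptor of skin, had 5152 and 4169. These are log2 ratios of 0.32, 0.23 and 0.31, all smaller than the SD of 0.51. Fzd9, with 428 on the array labelled double null and 561 in wild type, was not measured. Over the 9 measured Frizzled genes the median log2 ratio was 0.09, with 4 below 0 and 5 above, or 5 below and 4 above with quantile or reference gene scaling, while 3 were at least 2-fold lower under each of the 5 scalings, among which the share of all genes lower ran from 4.22% to 6.88%. That count was 2 with the mean over probe sets, with the filter at the 75th percentile and with the filter on both arrays.

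The stretches just upstream of Fzd7, Fzd10 and Rspo1 are shown because these are the genes past 2-fold, other than Fzd8, and because the factors in question bind DNA: MyoD and Myf5 at E-boxes, and Lef1 and TCF factors at their own core motif. Each is the 250 bases before the annotated start, on the gene's own strand, from RefSeq on GRCm38.p6: chr1:59481897-59482146 for Fzd7, chr5:128600856-128601105 for Fzd10 and chr4:124986180-124986429 for Rspo1, all on the plus strand. Capitals mark matches on either strand to the E-box CAGCTG, which MyoD favours, or to the TCF/LEF core CTTTGA; the motifs do not overlap each other here.
Fzd7: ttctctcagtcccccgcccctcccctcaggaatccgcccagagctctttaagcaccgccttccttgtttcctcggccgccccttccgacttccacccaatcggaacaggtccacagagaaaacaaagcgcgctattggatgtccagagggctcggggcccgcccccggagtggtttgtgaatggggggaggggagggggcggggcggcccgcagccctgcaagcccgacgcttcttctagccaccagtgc
Fzd10: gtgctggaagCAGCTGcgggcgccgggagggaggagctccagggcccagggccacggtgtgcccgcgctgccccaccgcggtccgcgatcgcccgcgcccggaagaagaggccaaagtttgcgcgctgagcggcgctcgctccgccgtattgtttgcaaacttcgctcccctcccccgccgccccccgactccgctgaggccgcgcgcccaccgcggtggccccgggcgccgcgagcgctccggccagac
Rspo1: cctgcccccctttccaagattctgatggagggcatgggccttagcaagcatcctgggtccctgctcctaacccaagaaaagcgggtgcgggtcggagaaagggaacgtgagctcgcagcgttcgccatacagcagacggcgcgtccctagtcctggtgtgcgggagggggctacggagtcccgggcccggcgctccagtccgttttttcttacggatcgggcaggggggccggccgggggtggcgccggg
The only match in the 3 stretches was an E-box in Fzd10, which begins 240 bases before the start. Among 34 member genes with such a window (40 windows), CAGCTG was found in 3 genes (Fzd10, Lef1 and Wnt9a) and CTTTGA in 6 (Dkk1, Fzd1, Lef1, Ror1, Wnt11 and Wnt5b). By window that is 7.5% for CAGCTG, against 13.0% of all 32851 windows of this length, and 15.0% for CTTTGA, against 13.8%. A match says that the letters are there and nothing of binding, and the absence of one covers these windows alone.

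Among the co-receptors and other receptors no gene passed 2-fold. Lrp6, the co-receptor of the beta-catenin branch, had a signal of 5413 on the array labelled double null and 5278 in wild type, a log2 ratio of 0.04 whose sign changed in 4 alternative settings. Lrp5 was under the floor on both arrays. Ror2, a receptor for Wnt5a, had 1988 on the array labelled double null and 2297 in wild type, a log2 ratio of -0.21, and its relative Ror1 had 972 and 930 in that order, 0.06, with the opposite sign in 3 alternative settings. Ryk, a receptor with an inactive kinase domain whose loss causes cleft palate in mice, was read inconsistently. Its representing probe set had 14569 on the array labelled double null and 9453 in wild type (1.54-fold higher), another had 2369 and 4862 (2.05-fold lower), and the remaining one had 758 and 945 (-0.32 on the log2 scale).

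The ligands had the lowest median of the larger role groups, without any gene past 2-fold. Of 19 Wnt genes 8 were measured, 6 of them below 0 (7 when the arrays were scaled on the reference genes' median signal), with a median log2 ratio of -0.28 and a range of -0.46 to -0.27 over the other scalings. Wnt6, expressed in surface epithelia, came nearest to the threshold, with a signal of 922 on the array labelled double null and 1714 in wild type (1.86-fold lower). Scaling on reference genes took it past 2-fold. The other Wnt6 probe set, too dim to count as measured, had 376 on the array labelled double null and 404 in wild type. Wnt5a, the main non-canonical ligand of palatal mesenchyme, had 2349 and 3532 in the same order, a log2 ratio of -0.59, but a second measured probe set had 2122 and 2024, a log2 ratio of 0.07. The Wnt5a difference is thus present in 1 of its 2 measured probe sets. Its other probe sets, too dim to count as measured, gave log2 ratios of -0.52 and -0.49.

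For Wnt4 both measured probe sets pointed the same way. They had 2282 on the array labelled double null against 2909 in wild type and 887 against 1185, log2 ratios of -0.35 and -0.42, each smaller than the SD of 0.51. Wnt10a, an epithelial ligand of teeth and skin, had 1249 on the array labelled double null and 1585 in wild type (-0.34 on the log2 scale). Wnt9a, a ligand of joints and skeletal tissue, had 1486 and 1717 in that order (-0.21), and Wnt11, a non-canonical ligand, had 707 and 776 (-0.13). On the other side of 0 were Wnt7b, with 1257 on the array labelled double null and 1129 in wild type (0.16, below 0 in 1 alternative setting), and Wnt5b, with 710 and 501 (0.51). Wnt5b reached the measured level only on the array labelled double null, by a probe set whose suffix marks possible cross-hybridisation. Its other probe set was under the floor on both arrays.

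The other 11 ligand genes were not measured. Wnt7a had 444 on the array labelled double null and 590 in wild type, and Wnt2 had 423 and 469. Wnt3a and Wnt10b were above the floor only in wild type, with 133 on the array labelled double null against 406 for Wnt3a, and 51.2 against 311 for Wnt10b. Wnt8a and Wnt9b were above it only on the array labelled double null, with 351 against 28.0 in wild type for Wnt8a and 342 against 80.7 for Wnt9b, and the other Wnt9b probe set, with 38.1 against 174, ran the other way. Wnt1, Wnt2b, Wnt3, Wnt8b and Wnt16 were under the floor on both arrays. Signals at this level support no order between the arrays, which includes Wnt3 and Wnt9b, the ligands with the best known roles in the lip and primary palate.

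The genes that release the ligands were slightly above 0 by their representing probe sets. Wls had a signal of 5755 on the array labelled double null and 4364 in wild type, a log2 ratio of 0.40, but its other measured probe sets gave -0.11 and -0.22. Porcn had 670 and 523 in the same order, a log2 ratio of 0.36, and reached the measured level only on the array labelled double null.

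Secreted antagonists stayed within 2-fold, and 6 of the 8 measured were above 0 with a median log2 ratio of 0.13, a balance that turned to 5 below and 3 above with reference gene scaling. Sfrp4, a frizzled-related protein of bone and connective tissue, had a signal of 1874 on the array labelled double null and 3246 in wild type (1.73-fold lower), by its only probe set. Dkk3, a divergent Dickkopf protein, had 2693 and 3946 in that order, a log2 ratio of -0.55, while its other measured probe set gave 0.27. These were the antagonists below 0, and the Dkk3 sign was not shared by its probe sets.

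Sfrp1 was above 0 in all 3 of its measured probe sets. They had 3919 on the array labelled double null against 3066 in wild type, 3540 against 3269, and 2813 against 1286, log2 ratios of 0.35, 0.11 and 1.13. The widest of these came from a probe set whose suffix marks possible cross-hybridisation. Sfrp2, a mesenchymal antagonist, had 7350 on the array labelled double null and 6736 in wild type (0.13), and Sfrp5 had 1033 and 846 (0.29). Wif1 had 23661 and 23236 (0.03), with a sign that changed in 4 alternative settings, as the sign of Sfrp2 did in 2.

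The Dickkopf inhibitors Dkk1 and Dkk2, which act downstream of Pax9 in the developing palate, showed no shared shift. Dkk1 had a signal of 1353 on the array labelled double null and 1179 in wild type (0.20 on the log2 scale), but 957 and 1583 (-0.73) by its other measured probe set. Dkk2 had 2446 and 2243 in the same order (0.13, below 0 in 2 alternative settings). Dkk4 was under the floor on both arrays.

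The measured R-spondins, which raise Wnt responses, did not share a direction. Rspo1 had a signal of 468 on the array labelled double null and 1113 in wild type, 2.38-fold lower by its only probe set. It reached the measured level only in wild type, so it could count only by being lower. Rspo2, which is needed for craniofacial and palate development in mice, had 5554 and 3202 in that order, 1.73-fold higher, the largest ratio above 0 among the probe sets that represent members. Its other probe set, too dim to count as measured, had 302 on the array labelled double null and 424 in wild type. Rspo3, known from blood vessels and bone, had 1087 and 1216 (-0.16 on the log2 scale), and Rspo4, a gene of nail development, was under the floor on both arrays.

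Genes that report or carry the beta-catenin response did not differ by more than the spread between probe sets. Axin2, a feedback inhibitor and widely used readout of the pathway, had a signal of 1840 on the array labelled double null and 2272 in wild type, a log2 ratio of -0.30. Lef1, the transcription factor that acts with beta-catenin, had 1304 and 1044 in the same order, a log2 ratio of 0.32. They thus lay on opposite sides of 0, both closer to it than 0.51.

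Probe sets of the same member often differed as much as the arrays did. Of the 11 members with 2 or more measured probe sets, 5 had all of them on 1 side of 0 (Wnt4, Fzd2, Fzd3, Fzd4 and Sfrp1) and 6 did not (Wnt5a, Wls, Fzd8, Ryk, Dkk1 and Dkk3). In 3 of them, Fzd8, Ryk and Sfrp1, the probe sets were at least 1 log2 unit apart. The pooled SD over these 11 genes was 0.55, beside 0.51 over all genes with several measured probe sets. The other 25 measured members rest on a single measured probe set, among them Fzd7, Fzd10 and Rspo1.

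**Figure D2:**
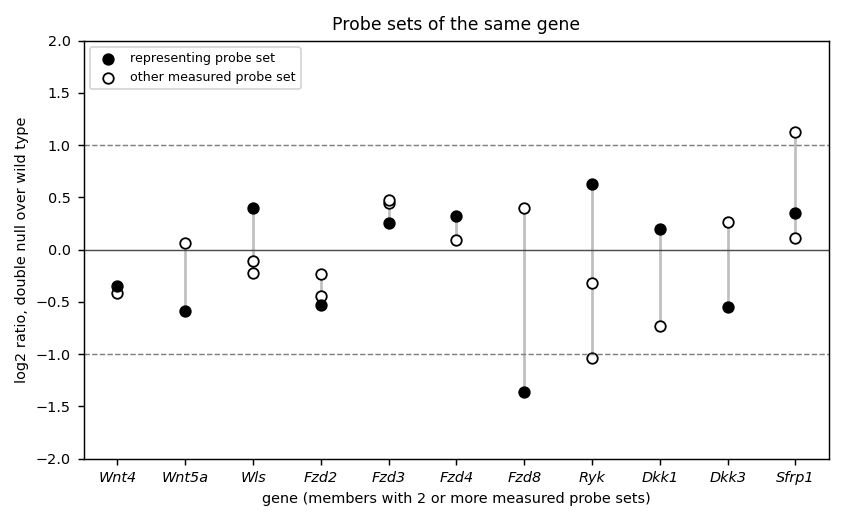
Log2 ratio, double null over wild type, of each measured probe set of the 11 members with 2 or more, where the filled circle is the probe set that represents the gene and open circles are the others. Dashed lines mark 2-fold. Fzd8 spans -1.36 to 0.40 and Ryk -1.04 to 0.62, whereas the 2 probe sets of Wnt4 lie 0.07 apart.

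The counts for further genes of the pathway depended on the filter. Of 98 such genes on the array 86 were measured, with a median log2 ratio of 0.06; 7 of the 86 were lower by 2-fold or more and 0 higher, against a background of 4.22% lower and 3.55% higher. The same counts of 7 and 0 were found under each of the other 4 scalings, where the share of all genes lower reached 6.88%. Of the 7 genes, 5 reached the measured level only in wild type, as Fzd10 and Rspo1 did. Among the 78 genes that reached it on both arrays 2 were lower, Csnk1g2 and Msx2, and 0 higher, near the 2.16% and 2.35% of all genes so measured. By probe set, 9 of 151 were lower and 3 higher (background 4.5% and 3.72%). The 3 higher are further probe sets of Camk2d, Camk2g and Nlk, kinases of the non-canonical branches or of TCF factors, with log2 ratios of 1.73, 1.64 and 1.13. The Camk2d value is a bound, since its wild-type signal was under the floor. Those of Camk2d and Camk2g reached the measured level only on the array labelled double null, so they could count only by being higher there. By their representing probe sets Camk2d, Camk2g and Nlk had log2 ratios of 0.47, 0.007 and 0.54. The 7 lower genes were Sost and Notum among ligand-level regulators, Ptk7 at the membrane, Apc2 and Csnk1g2 inside the cell, Nfatc2 in the calcium branch and Msx2 among targets.

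At the ligand level 9 genes were measured, 2 lower by 2-fold (background 4.22%, as for the lists below). Sost, the osteocyte inhibitor of Lrp5 and Lrp6, had a signal of 356 on the array labelled double null and 871 in wild type (2.45-fold lower). Notum, which removes the lipid from Wnt proteins, had 481 and 976 in the same order (2.03-fold lower). Sost and Notum reached the measured level only in wild type, so they could count only by being lower. Gpc3, a glypican of the cell surface, was next in size, with 4933 on the array labelled double null and 8134 in wild type (1.65-fold lower). Frzb, the gene also called Sfrp3, had 2047 on the array labelled double null and 1875 in wild type (0.13 on the log2 scale). Of the 9 measured membrane proteins 1 was lower: Ptk7, a polarity co-receptor, had 485 on the array labelled double null and 1084 in wild type (2.23-fold lower). Ptk7 too reached the measured level only in wild type. Tspan12, a partner of Fzd4 in norrin signalling, came close to 2-fold the other way, with 4456 and 2302 (1.94-fold higher). The R-spondin receptors Lgr4, Lgr5 and Lgr6 had log2 ratios of 0.60, 0.03 and -0.34.

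Of 32 measured intracellular genes of the beta-catenin branch 2 were lower by 2-fold (background 4.22%, as for the lists that follow). Apc2, a relative of Apc found mainly in neurons, had a signal of 302 on the array labelled double null and 980 in wild type (3.25-fold lower). It reached the measured level only in wild type. Csnk1g2, a casein kinase that phosphorylates Lrp6, had 1144 on the array labelled double null and 3643 in wild type (3.18-fold lower). Gsk3b, the kinase that marks beta-catenin for removal, had 21138 on the array labelled double null and 12149 in wild type (1.74-fold higher), with log2 ratios of -0.88 to 0.80 over its 5 measured probe sets. Ctnnb1, which encodes beta-catenin, had 110042 and 93120 (0.24 on the log2 scale). In the planar polarity and non-canonical list of 21 measured genes 1 was lower: Nfatc2, a calcium-responsive factor, had 441 on the array labelled double null and 949 in wild type (2.15-fold lower). Nfatc2 also reached the measured level only in wild type. Dchs1, a giant cadherin of planar polarity, had a log2 ratio of -0.80. Among 15 measured target and feedback genes 1 was lower: Msx2, a homeobox gene of craniofacial mesenchyme, had 1444 on the array labelled double null and 5427 in wild type (3.76-fold lower), with -0.30 on the log2 scale in its other measured probe set. Jag1, a Notch ligand, and Tnfrsf19, a receptor of the TNF family, followed in size, with log2 ratios of 0.70 and -0.63.

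**Figure D3:**
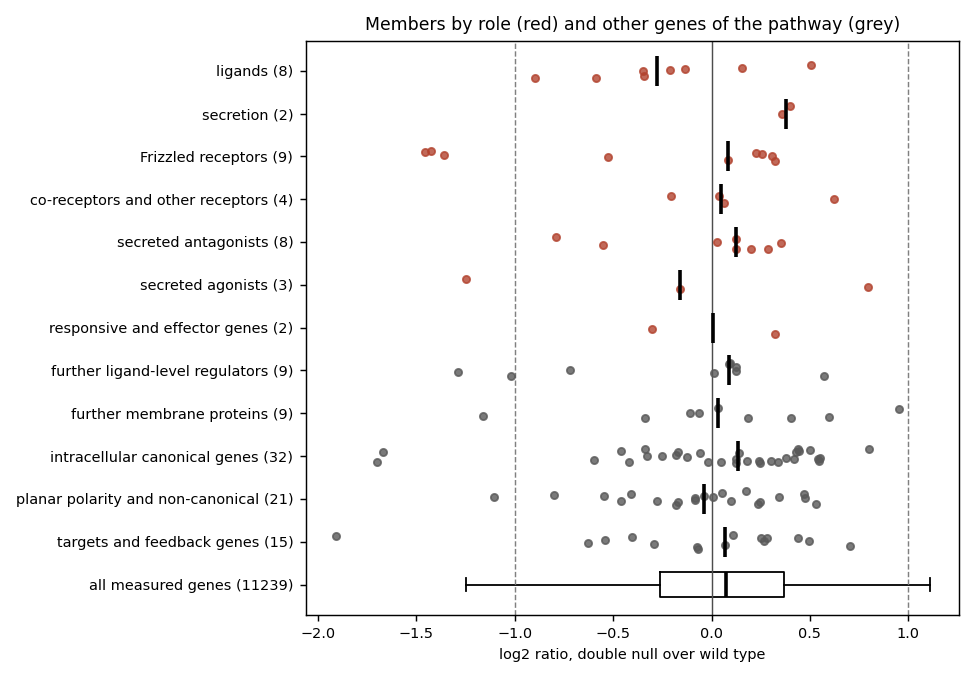
Log2 ratio, double null over wild type, of each measured gene, with members by role in red, further genes of the pathway in grey, the number measured in brackets and a black bar at the median. The box shows the quartiles of all 11239 measured genes and its whiskers their central 95%, and dashed lines mark 2-fold. The points beyond 2-fold, 4 members and 7 further genes, all lie on the lower side (background 4.22% lower and 3.55% higher). Of these, 2 members and 5 further genes reached the measured level only in wild type, so they could count only by being lower. Each gene is drawn by its representing probe set.

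The tissue on the arrays differed in more than these genes. Of 9 palatal mesenchyme markers 8 were measured, with summed signals of 137714 on the array labelled double null and 135813 in wild type and a median log2 ratio of 0.06, which lay below 0 under the other scalings. Col3a1 alone made up 110781 and 101385 of these sums. Msx1, a homeobox gene needed for palate growth, had 2562 on the array labelled double null and 9511 in wild type (3.71-fold lower), the only measured one of these markers past 2-fold. Osr2 was the marker not measured, with 45.6 on the array labelled double null, under the floor, and 379 in wild type. All 10 skeletal muscle markers were measured and below 0, with summed signals of 101268 on the array labelled double null and 184803 in wild type, so muscle transcripts were lower there but present. All 9 stratified epithelium markers were measured and 8 were below 0 (9 with quantile or reference gene scaling), with summed signals of 93980 and 152319 in the same order, while all 10 neuronal markers were above 0, with 126441 and 57793. No marker of these last 3 lists was under the floor on either array. Cartilage had 4 of 6 measured markers below 0 (sums of 11433 on the array labelled double null and 13569 in wild type), endothelium 4 of 6 (8936 and 10163, with Pecam1 under the floor on the array labelled double null) and osteoblasts 3 of 5 (167056 and 151843). The osteoblast sum was higher on the array labelled double null although the median log2 ratio of these markers was -0.29. Schwann cells had 3 of 4 above 0 (34607 and 21204), as did dental epithelium with 3 of 4 (148850 and 127422), and of 2 blood markers Alas2 was measured (3151 and 3669) and Hba-a1 was under the floor on both arrays. Muscle markers and most epithelium markers thus lay below 0, and neuronal markers above 0. Of the measured members 16 lay below 0 and 20 above, a split near the 43.5% and 56.5% of all measured genes. The part of these tissues in the values of the members was not tested. In such bulk RNA fewer cells of a type and less RNA per cell cannot be told apart.

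Under other processing the 4 members past 2-fold kept their sign in the settings that measured them. Fzd7 had log2 ratios from -1.61 to -1.37 over the alternatives and passed 2-fold in all of them that used the 2-fold rule. Its 1 measured probe set carries no suffix and passed every floor and filter. Those settings and the probe set rules therefore left it at -1.43, and only the scalings or a constant added to the signals could move it. Fzd10 ran from -1.64 to -1.02, Fzd8 from -1.55 to -0.48 and Rspo1 from -1.44 to -0.76. The values of -1.02 and -0.76 came from the floor at the 60th percentile. That floor lies above the signals of Fzd10 and Rspo1 on the array labelled double null, so both values are bounds. Of the members between 1.5-fold and 2-fold, Rspo2 stayed between 0.61 and 0.79, Sfrp4 between -0.98 and -0.76 and Wnt6 between -1.08 and -0.83, whereas Ryk reached -0.32 in the setting that leaves out probe sets with suffixes.

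**Figure D4:**
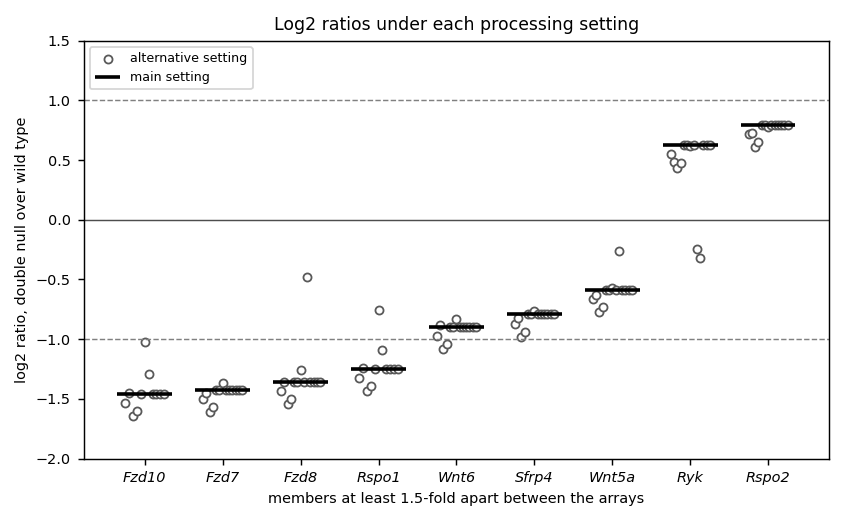
Log2 ratio, double null over wild type, of the 9 members at least 1.5-fold apart between the arrays, with the main setting as a black bar and each alternative setting as an open circle. Dashed lines mark 2-fold. Fzd7 keeps between -1.61 and -1.37, while Fzd8 rises to -0.48 when its probe sets are averaged and Ryk changes sign.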

How the data were processed

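Total RNA of 2 samples (6 µg each) was made into biotin-labelled cRNA for Affymetrix arrays, per the labels' protocols. The deposited values are linear signal intensities, 1 per probe set, which the authors computed with MAS5, as named in the submitters' processing notes without a version. Of 45101 probe sets, 34945 had 1 gene in the platform annotation, and the others were not used for genes. Arrays were brought to a common median over the probe sets in the upper part (50th percentile and up) of each (multiplied by 1.03 for the array labelled double null and 0.974 for wild type). A floor, log2 and a level for measured genes followed, as the report gives them. With 1 array per group no test was possible; genes were counted by size (2-fold), and the number of arrays limits the precision. Every member was accounted for, and measured ones were named with both signals. Of the further pathway genes, those past 2-fold and the 2 of largest absolute log2 ratio in each list were named, with Gpc3, Frzb, Ctnnb1, Gsk3b, Camk2d, Camk2g, Nlk, Tnfrsf19, Lgr4, Lgr5, Lgr6 and the markers Msx1 and Col3a1 chosen after their values were seen. Members, lists and rules were chosen with earlier results of these data known. The steps were tested on simulated data. Alternatives were other scalings, floors, filters, probe set rules and fold rules. Analyses used Python 3.11.15, numpy 2.4.6, pandas 2.3.3 and matplotlib 3.10.9. Upstream sequences are RefSeq's, on GRCm38.p6.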

Additional observations from a re-analysis of the deposited data

How the results depend on the processing

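No paired analysis was possible because each genotype has 1 array. The count of 4 members at least 2-fold lower (4.22% of all genes) became 5 with either scaling on reference genes (Wnt6 joined; 6.88% and 6.14% of all genes), 3 with the floor at the 60th percentile (without Rspo1; 2.35%) and 3 with the mean over probe sets (without Fzd8; 4.001%). It was 2 with the filter at the 75th percentile (3.07%), 2 where both arrays had to reach the 60th percentile (2.16%; an alternative chosen after seeing the data), 7 at 1.5-fold (11.7%) and 0 at 3-fold (1.17%). The count of members at least 2-fold higher was 0 in every setting run with that rule and 2 at 1.5-fold. The members' median log2 ratio of 0.05 became -0.15 when the reference genes' median signal set the scale, -0.11 when their median ratio did and -0.13 with probe sets without suffixes. Scaling moved all genes too: their median was 0.07, against -0.13 and -0.08 with the reference scalings, so the members stayed 0.02 to 0.03 below it there. With probe sets without suffixes all genes had a median of 0.06, with the members 0.19 below it, and with the mean over probe sets the members were 0.10 below all genes. Of all genes past 2-fold 54.3% were lower in the main setting, against 65.0% on the deposited scale and 79.3% and 74.5% on the reference scales. Of 36 members 26 kept their sign in all the settings that measured them, and 10, all with log2 ratios within 1 of 0, did not. Signals near the floor limit what can be said of the 15 members not measured.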
